A study of Rattus norvegicus with 4 samples.

Results

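The genes described here encode voltage-gated and related potassium, calcium and sodium channels. They were taken as all array probes annotated to exactly 1 gene whose symbol starts with Kcn, with Cacn, or with Scn followed by a digit, leaving out Kcnj13. This gave 164 probes for 120 genes, out of 23535 probes with 1 annotated gene and 14878 genes. Of the 120 genes, 82 were potassium, 26 calcium and 12 sodium channel genes, and 90 had 1 probe, while 30 had between 2 and 5. The rule itself reads names and no measured value, but the members were chosen with earlier results of these data known. The left-out Kcnj13 was above control on both arrays of the un-irradiated right striatum, at log2 ratios of 2.53 and 1.73.

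The study used 4 grown male rats of the Wistar strain, held under pentobarbital anaesthesia in a head frame, and measured total RNA of the dissected striatum. Irradiated rats received gamma knife surgery, in which many gamma beams meet at 1 point, aimed at the striatum of 1 side with a 4 mm collimator. The maximum dose at the centre was 60 Gy, delivered over 30 min, and striata were dissected at 16 h. Irradiated left striatum was compared with left striatum of control rats, and un-irradiated right striatum of irradiated rats with right striatum of control rats. Each comparison was hybridised on 2 two-colour arrays with swapped dyes, with the experimental RNA in Cy5 on array 1 and in Cy3 on array 2. Both arrays of a side are labelled as replicate 1 of the same 2 RNA sources. Each side therefore has 1 replicate, its 2 array values show technical spread, and no difference was tested. The labels do not say how many rats gave each RNA or whether control rats were handled as the irradiated ones were.

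Voltage-gated channels open when the membrane potential changes and shape the action potential, whereas inward rectifier and two-pore potassium channels hold the resting potential. Pore-forming subunits carry the ions, and auxiliary subunits alter their gating and their transport to the membrane. Projection neurons of the striatum are known for strong inward rectification and for a slow approach to firing set by A-type potassium currents.

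All values are log2 ratios of experimental over control RNA, given for array 1 and then array 2, or as their mean. A gene is called higher or lower where both arrays lay past 1.5-fold and both in that direction. The upstream sequences of 3 of the genes that the results turn on are shown first: Scn4b, the 1 channel gene called on the irradiated side, and Kcnip3 and Kcnc2, brain genes called on the un-irradiated side. Each is the 250 bases before the gene's start in RefSeq's GRCr8 rat assembly, and 83 of the 120 genes had an entry there. Scn4b lies at chr8:54343623-54343872 on the plus strand, Kcnip3 at chr3:135195411-135195660 on the minus strand and Kcnc2 at chr7:49587364-49587613 on the plus strand. Capitals mark the E-box CANNTG, the letters bound by basic helix-loop-helix factors, which reads the same on both strands.
Scn4b: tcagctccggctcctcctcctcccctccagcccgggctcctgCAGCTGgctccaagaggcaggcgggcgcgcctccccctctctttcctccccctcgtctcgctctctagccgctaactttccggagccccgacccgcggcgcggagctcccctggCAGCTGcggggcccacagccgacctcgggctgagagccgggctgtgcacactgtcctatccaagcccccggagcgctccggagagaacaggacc
Kcnip3: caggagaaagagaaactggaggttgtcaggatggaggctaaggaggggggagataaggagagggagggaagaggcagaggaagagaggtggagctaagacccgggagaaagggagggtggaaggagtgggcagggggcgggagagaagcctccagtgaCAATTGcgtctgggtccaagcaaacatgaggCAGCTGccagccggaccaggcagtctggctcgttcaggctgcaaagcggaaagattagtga
Kcnc2: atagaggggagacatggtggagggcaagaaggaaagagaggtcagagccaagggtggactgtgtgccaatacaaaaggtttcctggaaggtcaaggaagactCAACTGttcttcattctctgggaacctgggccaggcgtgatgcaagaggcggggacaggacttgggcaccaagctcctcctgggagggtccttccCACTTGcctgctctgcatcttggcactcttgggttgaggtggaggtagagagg

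Each of the 3 windows held 2 E-boxes, and such a match is a description of letters, not of a bound site. CANNTG was present in 62.7% of the 83 channel windows and in 65.2% of all 27457 upstream windows. The GC box GGGCGG, searched on both strands, was present in 49.4% of the channel windows, compared with 32.4% of all windows. It occurred once in the Kcnip3 window and was not found in those of Scn4b and Kcnc2. TGACG, the core of the cyclic AMP response element, searched on both strands, stood in 16.9% of channel windows and 19.0% of all windows, and in none of the 3 shown. For RE1, the element of the neuronal repressor REST, the stretch GGACAG was found in 26.5% of channel windows and 18.3% of all windows, and the stretch TCAGCACC in 3.61% of channel windows and 1.33% of all windows, each on both strands. One GGACAG match each lay in the Scn4b and Kcnc2 windows.

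In the irradiated left striatum the channel genes lay close to control. Of 120 genes, 0 were called higher, where 1.18% of all genes were, and 1 was called lower (0.833%), where 1.03% were. The median over channel genes was -0.05, beside 0.00 over all genes, and 115 of 120 means lay within 1.5-fold of control. In the un-irradiated right striatum 5 channel genes were called higher (4.17%), beside 1.71% of all genes, and 0 were called lower, beside 1.46%. The right median was 0.05 over channel genes and -0.01 over all genes, with 106 of 120 means within 1.5-fold. Counted by probe, 0 of 164 were called higher on the left, beside 1.42% of all probes with 1 gene, and 2 lower (1.22%), beside 1.23%. On the right 7 probes were called higher (4.27%), beside 2.12%, and 2 lower (1.22%), beside 1.67%.

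Every one of these calls depends on how the deposited ratios are read. As deposited, the 2 arrays of a side correlated positively over all features (Pearson's r 0.743 for the left pair, 0.666 for the right pair). Over the channel probes the same correlations were 0.354 for the left pair and 0.0209 for the right pair. After the reversal the 2 arrays differed in direction for 56 of 120 channel genes on the left and 53 on the right, beside 8039 and 8492 of 14878 genes. With array 2 not reversed, none of the genes could be called again in the same comparison, because the 2 arrays of each then have opposite signs. Kcna7, Kcne3 and Kcnj1, called higher on the right here, were then called higher on the left. With the values read as log2 in place of log10 there were 0 calls among channel genes.

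**Figure D1:**
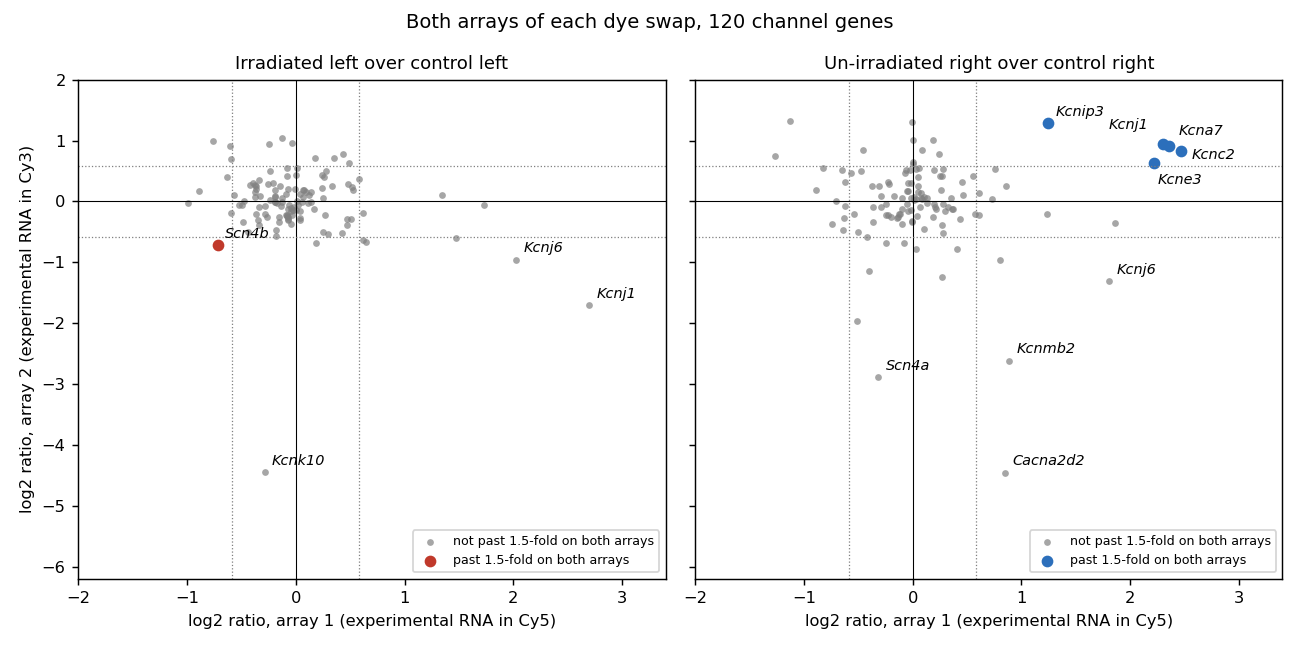
Array 1 (horizontal) and array 2 (vertical) log2 ratios of experimental over control RNA for the 120 channel genes, irradiated left in the left panel and un-irradiated right in the right panel, with dotted lines at 1.5-fold. Scn4b alone is past 1.5-fold on both arrays on the left and lies below and left of the origin, whereas on the right 5 genes are past it above and right of the origin; 56 genes on the left and 53 on the right read in opposite directions on the 2 arrays.

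The gene called on the left was Scn4b, the sodium channel beta4 subunit, which is abundant in striatal projection neurons and known for resurgent sodium current. It stood at -0.72 on both left arrays. Its 2 probes read -0.62 and -0.65, and -0.82 and -0.78, so both were past 1.5-fold on both arrays. On the right Scn4b stood at -0.74 and -0.37 and was not called, since its first probe read -0.81 and -0.09, while the second read -0.68 and -0.65 and was past 1.5-fold by itself. Scn4b lay below control on all 4 arrays, and the left minus right difference was 0.02 and -0.35 on the 2 arrays.

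Of 18 measured markers of the projection neurons themselves, 10 were below 0 on both left arrays and 2 above it, and 17 were below 0 on both right arrays and 1 above it. On the left 1 of the 18 was called lower and 0 higher, with a median of -0.30 and a range from -0.81 to 0.13; the called one was Rgs9, a regulator of dopamine receptor signalling, at -0.84 and -0.78. On the right 7 of 18 were called lower and 0 higher, with a median of -0.69 and a range from -1.01 to 0.24. In bulk tissue fewer cells of a type and less RNA per cell cannot be told apart, and the part of projection neuron content in the Scn4b value was not tested.

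The other sodium channel beta subunits did not share this value. Scn3b, a non-covalently attached beta subunit, stood at 0.02 and -0.06 on the left and -0.05 and -0.15 on the right. Scn2b read in opposite directions on the left arrays and stood at 0.56 and 0.42 on the right. Among 9 sodium channel pore genes the left values were small and the 2 arrays close together, with a median distance of either array from the mean of 0.01, beside 0.17 over all genes. Scn1a, Scn2a and Scn8a, the main pore subunits of central neurons, had left means of 0.23, 0.07 and -0.26 and right means of 0.22, 0.09 and 0.15. Scn7a, the atypical sodium-sensing channel, had the highest left value of the 9, at 0.35 and 0.72, and Scn9a, best known from sensory neurons, stood at 0.26 and 0.40. The 9 pore genes included 6 above 0 and 2 below 0 on both left arrays. Scn4a, the skeletal muscle channel, had the lowest right value, at -0.32 and -2.88, and that mean of -1.60 rested on array 2.

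Calcium channel genes lay slightly below control on the left. Of 26 genes 10 were below 0 on both left arrays (38.5%) and 2 above it (7.69%), compared with 23.0% and 23.0% of all genes. Their median was -0.06, and it was -0.18 on array 1 and 0.02 on array 2, so the shift was not seen on array 2. None of the 26 was called on either side. Of the pore genes, Cacna1i, a T-type channel, stood at -0.28 and -0.20, and Cacna1b, the N-type channel of presynaptic terminals, at -0.38 and 0.07 on the left. Cacna1c and Cacna1d, the L-type channels of projection neurons, had left means of 0.09 and -0.04 and right means of 0.18 and 0.10.

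Auxiliary calcium channel subunits gave the larger gene means. The pore gene Cacna1e read 0.27 and -1.24 on the right, where one of its probes read 0.63 and -5.22. Cacng4, a gamma subunit that also escorts AMPA receptors, stood at -0.99 and -0.02 on the left and -0.70 and 0.01 on the right, with the deviation on array 1 of each side. Cacnb3, a beta subunit, was at -0.36 and -0.21 on the left, whereas it read 0.08 and 0.04 on the right. Cacna2d3, an alpha2delta subunit, was at 0.06 and 0.19 on the left and -0.63 and -0.28 on the right. Cacng5, another AMPA receptor partner, had 0.24 and 0.78 on the right. Cacng7 read -0.01 and 1.30 there, which left its mean of 0.64 to array 2. Cacna2d2 had the lowest right mean of all channel genes, -1.80, made of 0.85 and -4.46 in opposite directions.

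**Figure D2:**
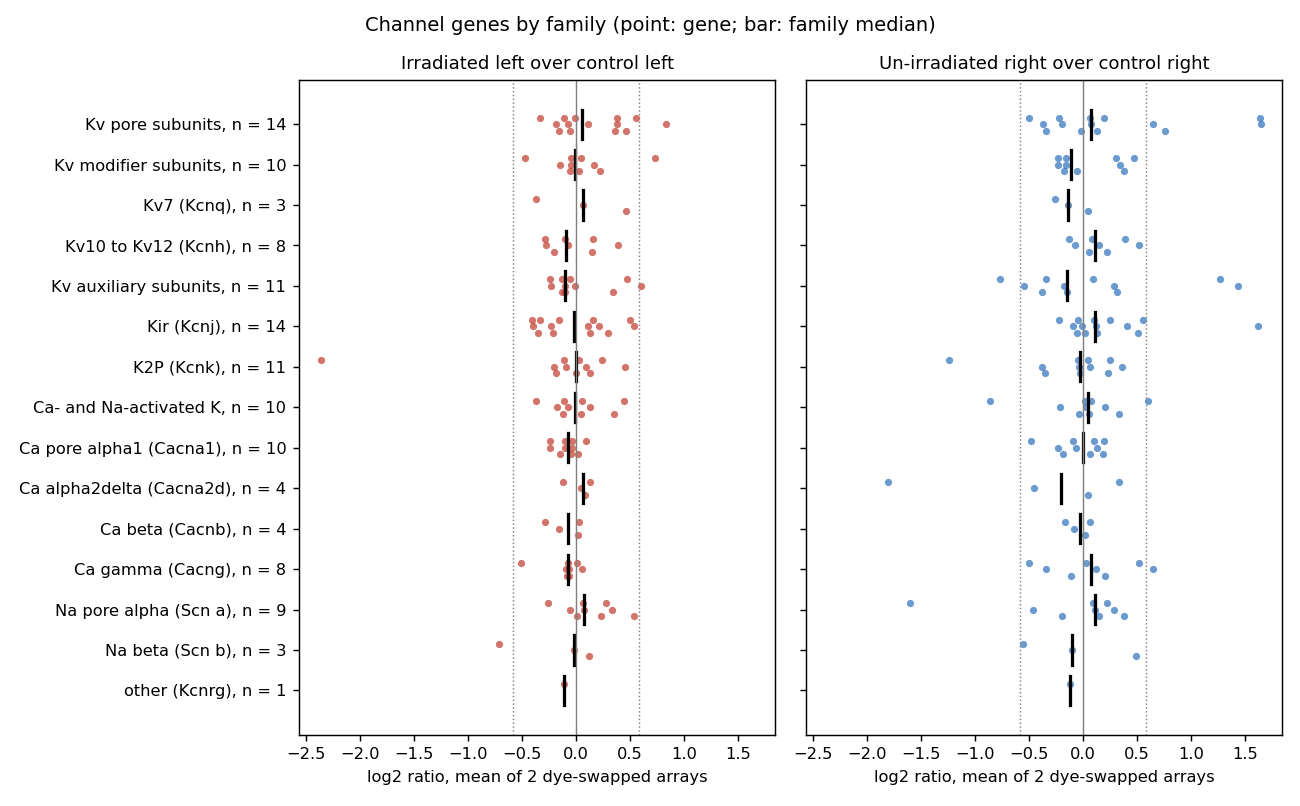
Mean log2 ratio of the 2 arrays (horizontal) for each channel gene, by family down the page, with irradiated left over control left in the left panel and un-irradiated right over control right in the right panel; points are genes, black bars family medians and dotted lines 1.5-fold. Medians of the 14 families of more than 1 gene lie between -0.10 and 0.07 (left) and between -0.20 and 0.11 (right). The points past 1.5-fold are mostly potassium channel genes on the right, and 82 of the 120 genes are potassium channel genes.

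The 82 potassium channel genes held all 5 genes called on the right, where 1.71% of all genes were called higher. They are also most of the 120 channel genes, and 5 calls are too few to set potassium genes apart from the others. Family medians over the 8 potassium families of more than 1 gene lay between -0.10 (auxiliary subunits of Kv channels) and 0.06 (Kcnq) on the left, and between -0.15 (Kv auxiliary subunits) and 0.11 (inward rectifiers, and Kcnh) on the right. The medians of the 14 channel families all lay inside 1.5-fold on both sides. Within the Kv pore family single genes ranged from -0.33 (Kcnd2) to 0.84 (Kcnb2) on the left and from -0.50 (Kcna4) to 1.64 (Kcnc2) on the right.

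Among the 5 genes called on the right the arrays lay closest together for Kcnip3, which encodes the calcium sensor also known as calsenilin or DREAM, a partner of Kv4 channels. It stood at 1.24 and 1.29 in the un-irradiated right striatum, a mean of 1.26 or 2.40-fold, and was the 1 channel gene past 2-fold on both arrays. On the irradiated left it stood at 0.43 and 0.77, a mean of 0.60, and was not called because array 1 fell short. Kcnip3 was above control on all 4 arrays, and the left minus right difference was -0.81 and -0.51. Its relatives were not called. Kcnip1 stood at 0.24 and 0.44 on the left and 0.47 and 0.11 on the right, and Kcnip4 at 0.58 and 0.37 on the left and 0.13 and 0.06 on the right. Kcnip2, the striatum-enriched member, read -0.36 and 0.26 on the left and -0.88 and 0.19 on the right, with the arrays in disagreement on both sides.

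The remaining 4 genes called on the right had wide gaps between arrays. Kcnc2, the Kv3.2 channel of fast-spiking neurons, stood at 2.46 and 0.82, Kcna7, a Kv1 channel known from muscle, at 2.36 and 0.92, Kcnj1, the ROMK channel of kidney, at 2.30 and 0.95, and Kcne3, an auxiliary subunit known from epithelia, at 2.22 and 0.64. All 4 thus lay between 2.22 and 2.46 on array 1 and between 0.64 and 0.95 on array 2. On array 1, 435 of 23535 probes with 1 gene lay at or above the lowest of these values. Each had 1 probe, so no second probe could be set beside it. On the left the same 4 genes read in opposite directions on the 2 arrays. These values were -0.04 and 0.96 for Kcnc2, 0.62 and -0.64 for Kcna7, 2.70 and -1.70 for Kcnj1 and 0.64 and -0.67 for Kcne3. Spot brightness was not used here, so whether these spots were near background was not tested.

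**Figure D3:**
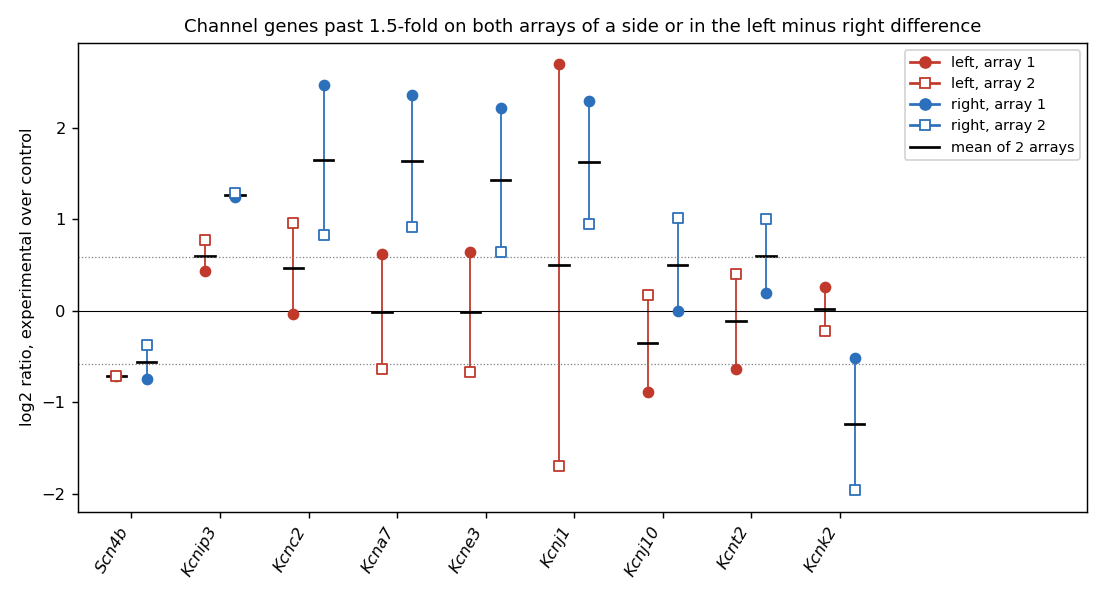
Log2 ratio of experimental over control RNA (vertical) on each array for the 9 channel genes past 1.5-fold on both arrays of a side or in the left minus right difference; filled circles are array 1, open squares array 2, red the irradiated left, blue the un-irradiated right, black bars the mean of 2 arrays and dotted lines 1.5-fold. The marks of Scn4b on the left and Kcnip3 on the right nearly coincide, whereas those of Kcnc2, Kcna7, Kcne3 and Kcnj1 are far apart.

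Some markers of neighbouring tissue differed on the right side as well. Of 12 measured markers of cortical excitatory neurons 0 were called higher and 1 lower on the left, with a median of -0.06. On the right 5 of the 12 were called higher and 0 lower, with a median of 0.62 and a range from -0.27 to 2.35. Neurod2, a transcription factor of these neurons, stood at 2.18 and 1.72 on the right. Of 12 meningeal and fibroblast markers 3 were called lower on the left (median -0.40) and 4 higher on the right (median 0.45, range from 0.10 to 1.33). Of 10 choroid plexus markers, Kcnj13 alone was called higher on the right, and the transport protein Ttr, which dominates that tissue, read 0.97 and 0.37. The right median of the 10 was 0.05, with a range from -0.39 to 2.13. On the right arrays 3 of them were above 0 on both, 3 below 0 on both and 4 in opposite directions. The part of these tissues in the right-side channel values, Kcnip3 included, was not tested.

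Other voltage-gated potassium channels were not called on either side. Kcna3, the Kv1.3 channel of microglia and T cells, came closest to the threshold, with 0.48 and 0.63 on the left and 0.76 and 0.53 on the right. One of its 2 probes was past 1.5-fold on both right arrays, at 1.04 and 0.84, and the other read 0.47 and 0.23. Kcnb2, a delayed rectifier, had the highest left mean of all channel genes, 0.84, but read 1.73 and -0.06 there and 1.86 and -0.35 on the right, so its excess was on array 1 of both sides. Kcns3, the silent Kv9.3 subunit of fast-spiking cells, likewise stood at 1.35 and 0.10 on the left. Kcna4 and Kcnd2, which are among the A-type channel subunits, were below control on all 4 arrays. Kcna4 stood at -0.09 and -0.22 on the left and -0.50 and -0.50 on the right. Kcnd2 stood at -0.35 and -0.31 on the left and -0.54 and -0.20 on the right. Their relatives Kcnd1 and Kcnd3 did not share this. Kcnd1 read -0.24 and 0.02 on the left and -0.625 and -0.07 on the right. Kcnd3 read 0.52 and 0.19 on the left and -0.45 and 0.85 on the right. Kcnab1, the striatum-rich beta subunit that associates with Kv1 channels, stood at -0.64 and -0.47 on the right, where its 2 probes had means of -0.56 and -0.54. The silent subunit Kcnv2 was at -0.44 and -0.50 on the left.

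None of the modifier, M-current and EAG-type subunits was called on either side, though single arrays reached past 1.5-fold. Kcnh5, an EAG channel, read 1.24 and -0.20 on the right. Kcnq3, a subunit of the M-current, was at -0.18 and -0.57 on the left and 0.22 and -0.12 on the right. Kcnq1, the cardiac and epithelial member, read in opposite directions on both sides, with -0.13 and 1.05 on the left and -1.26 and 0.74 on the right. Kcnh2, the ERG channel, was at 0.28 and 0.50 on the left. Kcnh4, a striatum-enriched ELK channel, stood at -0.04 and -0.16 on the left and 0.45 and 0.32 on the right. Kcne2, an auxiliary subunit abundant in choroid plexus, stood at -0.40 and -1.14 on the right, below control, while Kcnj13 of the same tissue stood above it.

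Inward rectifiers and two-pore channels include the potassium conductances of glia. Kcnj10 (Kir4.1), the main potassium channel of astrocytes, read -0.89 and 0.18 on the left and 0.00 and 1.01 on the right. Neither side was called, but the difference between arrays of like dye orientation was steady, at -0.89 and -0.83, so Kcnj10 was called lower in the left minus right difference. Its partner Kcnj16 (Kir5.1) was at 0.33 and 0.25 on the left and 0.86 and 0.25 on the right. Kcnj8, the channel subunit of pericytes, was at -0.48 and -0.34 on the left and -0.05 on both arrays of the right. Of 10 astrocyte markers 2 were called lower on the left (median -0.34, range from -0.77 to 0.02) and 0 were called on the right (median -0.08). Whether astrocyte content has a part in the Kcnj10 difference was not tested. Kcnj2 and Kcnj4, the Kir2 channels of projection neurons, had left means of 0.11 and 0.16 and right means of 0.12 and 0.10, and on all of these the 2 arrays differed in direction.

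Kcnk2 (TREK-1), a mechanosensitive leak channel, stood at 0.26 and -0.22 on the left and at -0.52 and -1.96 on the right. Its 2 probes differed there, with -0.61 and -3.52 for one and -0.42 and -0.40 for the other. Kcnk10 (TREK-2) had the lowest left mean of all channel genes, -2.37, but it was made of -0.28 on array 1 and -4.45 on array 2. Kcnk13, the resting potassium channel of microglia, was at -0.01 and 0.20 on the left and -0.05 and 0.18 on the right. Of 10 microglia markers 3 were called lower on the left (median -0.39) and 1 on the right (median -0.14). On the left P2ry12, the ADP receptor of resting microglia, read -2.43 and -2.91. Kcnk6, a two-pore channel listed with microglia, stood at 0.18 and 0.72 on the left and -0.31 and 0.26 on the right.

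Potassium channels gated by calcium or sodium were not called on either side. Kcnma1, the pore of the large-conductance BK channel, was at 0.11 and -0.03 on the left and 0.35 and 0.06 on the right. Its neuronal beta4 subunit Kcnmb4 stood at -0.34 and -0.39 on the left and at 0.03 on both arrays of the right. Kcnmb2, another BK beta subunit, had a right mean of -0.86 made of 0.89 and -2.62. Kcnmb1, the smooth muscle subunit, read 1.48 and -0.60 on the left. Kcnt2, the sodium-activated channel Slick, had -0.63 and 0.41 on the left and 0.19 and 1.01 on the right.

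**Figure D4:**
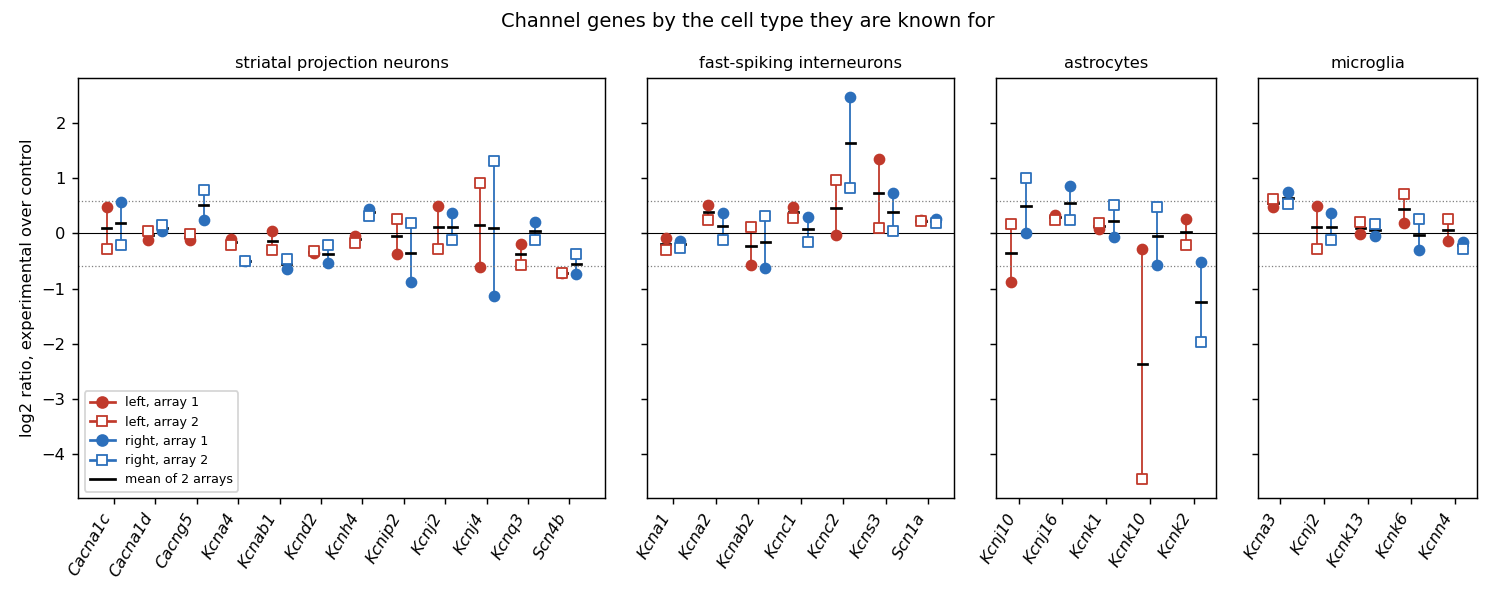
Log2 ratio of experimental over control RNA (vertical) on each array for channel genes known for 4 cell types; filled circles are array 1, open squares array 2, red the irradiated left, blue the un-irradiated right, black bars the mean of 2 arrays and dotted lines 1.5-fold. Within the projection neuron panel Scn4b has the lowest left mean, with both left marks at -0.72, and Kcnk10 in the astrocyte panel shows a left value carried by array 2.

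The channel genes were also grouped by the cells they are known for. Over all genes 1.18% were called higher and 1.03% lower on the left, and 1.71% higher and 1.46% lower on the right. The channel gene groups are too small for their counts to be set against these shares. Of 12 channel genes known for high levels in projection neurons, Scn4b alone was called, on the left, and 0 were called on the right. Their medians were -0.08 on the left and 0.07 on the right, beside -0.30 and -0.69 for the projection neuron markers. Fast-spiking interneuron channels, 7 in number, had medians of 0.38 and 0.13, with Kcnc2 called on the right. Within that group Kcna2 stood at 0.52 and 0.24 on the left, Kcnc1, the Kv3.1 channel, at 0.48 and 0.28, and Kcna1 at -0.07 and -0.30. The 5 astrocyte channel genes had medians of 0.02 and 0.23, the 5 microglia ones 0.11 and 0.06, the 5 of vascular mural cells 0.09 and 0.07 and the 4 of the oligodendrocyte lineage -0.43 and -0.03, each left and then right, with 0 called in these groups on either side. Beside the last group, 9 oligodendrocyte markers had medians of -0.43 and -0.42, with 1 called lower on the left, and 6 precursor markers had medians of -0.92 and -0.61, with 4 called lower on the left and 1 on the right. The 11 endothelial and pericyte markers had medians of -0.26 and -0.04, with 0 called on either side. What part these cells have in the channel values was not tested.

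For the left minus right difference each left array was set against the right array labelled the same way, and a dye effect common to both drops out. By the same 1.5-fold rule 1 channel gene was called higher on the left (0.833%) and 4 lower (3.33%), beside 2.59% and 2.26% of all genes. By probe, 2 were higher (1.22%) and 5 lower (3.05%), beside 3.12% and 2.59% of all probes with 1 gene. Kcnk2 was the higher one, at 0.78 and 1.74, and was no longer called with its RefSeq mRNA probe alone. Kcna7 and Kcne3 were lower, at -1.74 and -1.56 and at -1.58 and -1.30, and Kcnj10 and Kcnt2 at -0.89 and -0.83 and at -0.83 and -0.60. Both Kcnt2 probes read in opposite directions on each side. The first was at -1.34 and 1.21 on the left arrays and -0.30 and 2.09 on the right arrays. The second was at 0.07 and -0.40 on the left and 0.69 and -0.08 on the right. In the difference the second probe stood at -0.61 and -0.32 and was not called by itself. The median difference was -0.02 over channel genes and 0.02 over all genes.

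Probes of the same gene gave a further measure of spread. Over the 30 channel genes with several probes, the median range between a gene's probes was 0.26 on the left and 0.33 on the right, and it exceeded 1.5-fold for 3 genes on the left and 9 on the right. Kcnj6, the GIRK2 channel of dopamine neurons, had the widest range. Its probe to a RefSeq mRNA read 2.91 and 1.28 on the right, past 1.5-fold, whereas its other probe read 0.71 and -3.91. In 4 instances the mean of a side was past 2-fold without a call, which were Kcnk10 on the left and Cacna2d2, Scn4a and Kcnk2 on the right. For these the distance of either array from the mean ran from 0.72 to 2.65.

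Channel genes outside the Kcn, Cacn and Scn names were counted as well. Of 43 other cation and chloride channel genes 1 was called higher on the left, beside 1.18% of all genes, and 0 lower, beside 1.03%. On the right 0 were called, beside 1.71% of all genes higher and 1.46% lower. A count of 1 is too small to set apart from these shares. The medians of the 43 were 0.00 on the left and -0.03 on the right. Their means ranged from -0.58 (Hcn4) to 0.73 (Trpc4) on the left and from -2.22 (Unc80) to 1.57 (Orai1) on the right, where 38 of 43 lay within 1.5-fold and both ends rested on 1 array. The called one was Trpc4, a receptor-operated calcium-permeable channel, which stood at 0.76 and 0.71 on the left and 1.01 and 0.35 on the right. Of 37 genes for partners and anchors of these channels 0 were called on either side, with medians of -0.03 and 0.00. The secreted protein Lgi1, which modulates Kv1 channels, was called higher in the left minus right difference, with 0.55 and 0.14 on the left and -0.06 and -1.94 on the right.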

How the data were processed

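Total RNA of rat striatum was hybridised to 4 two-colour Agilent arrays, and the authors used Agilent Feature Extraction 8.1, per the submitters' processing notes; no settings of it are stated. The deposited table of 43628 features was taken to hold log10 red-to-green ratios, as that software reports them, and was converted to log2 with the sign of array 2 of each side reversed. Scale, centring and direction are not stated with it. The deposited log10 medians were 0.00418 and 0.00444 on the left arrays and 0.00832 and 0.0111 on the right ones. As deposited, Pearson's r between the arrays of a side over all features was 0.743 for the left side and 0.666 for the right. Across 5654 genes with several probes, the first 2 probes of a gene correlated at 0.163 (left) and 0.0865 (right) with array 2 reversed and at 0.0380 and 0.0411 without, a description in which probes share arrays.

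Names came from GEO's platform annotation, updated by Entrez identifier through RefSeq's GRCr8 gene table; 23488 of 23535 probes with 1 gene matched, 48 with several genes were not named and 20045 had none. A gene's value is the mean over its probes. Per side the 2 arrays are 1 replicate, so no p-value is given, and precision is limited by having 4 arrays. The counting rule was tested on simulated data whose planted changes all lay well past 1.5-fold, so smaller changes were not tried. Members, gene lists and marker lists were chosen with earlier results of these data known. By rule 70 channel genes were picked for naming. These are the genes called, the 5 furthest from control per side and direction among genes of 1 sign, and each family's extremes. Genes whose probes oppose each other and the members of the cell type lists belong to the rule too. Not all of the 70 are printed, and others are named as examples after their values were seen. Alternatives were a 2-fold threshold, array 2 not reversed, log2 reading, centred arrays, the median over probes, RefSeq mRNA probes alone, probes as units and single arrays. Python 3.11.15, pandas 2.3.3, numpy 2.4.6 and matplotlib 3.10.9 were used.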

Additional observations from a re-analysis of the deposited data

Results flagged for a closer look

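Among the 70 channel genes picked for naming, 8 had both arrays of one side on one side of 0 and both arrays of the other opposite. The share over all genes was not counted, so the 8 cannot be set against it. Channel genes not picked also read this way, such as Kcnh3, at -0.50 and -0.07 on the left and 0.05 and 0.40 on the right. With 1 replicate a side the difference was not tested. The left minus right value was 1.88 for Scn4a (0.28 on the left and -1.60 on the right, which array 2 carried), 0.58 for Cacna2d3 (0.13 and -0.45) and 0.34 for Kcna5, a Kv1 channel of vascular muscle (0.11 and -0.23). It was -0.58 for Cacng5 (-0.06 and 0.51), -0.49 for Kcnh4 (-0.10 and 0.38), -0.41 for Scn8a (-0.26 and 0.15), -0.40 for Kcnmb4 (-0.37 and 0.03) and -0.35 for Cacnb3 (-0.29 and 0.06). None of the 8 was called in the difference, since at least 1 array lay within 1.5-fold.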

How the results depend on the processing

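No paired analysis was possible because each side has 1 replicate. Centring the arrays and taking the median over probes kept the same genes called in all 3 comparisons. Scn4b had -0.72 with centring, the median over probes, RefSeq mRNA probes alone and either single array. Over the same 5 alternatives Kcnip3 ranged from 1.24 to 1.29, whereas Kcnc2 ranged from 0.82 to 2.46. Kcna7 ranged from 0.92 to 2.36, Kcnj1 from 0.95 to 2.30 and Kcne3 from 0.64 to 2.22. The ends of these ranges are the single arrays. All these genes have 1 or 2 probes, each to a RefSeq mRNA. The median over probes and the RefSeq restriction therefore could not alter their values. With the 2-fold threshold 0 genes were called lower on the left, 1 higher on the right (Kcnip3), and 0 higher and 2 lower (Kcna7, Kcne3) in the difference. RefSeq mRNA probes alone gave 6 higher on the right, adding Kcnj6, and, in the difference, 0 higher, where Kcnk2 was lost, and 5 lower, adding Kcnj6. Read as log2, the values gave 0 calls anywhere, since every ratio shrinks. Single arrays gave 8 to 10 genes higher and 8 lower on the left, 15 to 16 higher and 11 to 12 lower on the right, and 8 to 10 higher and 11 lower in the difference, as fewer arrays have to pass.

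Without reversing array 2, the counts were 5 higher and 3 lower on the left, 4 higher and 2 lower on the right and 1 higher and 2 lower in the difference, with 0 genes shared in the same comparison and direction; Kcna7, Kcne3 and Kcnj1 passed as higher on the left in place of the right. Every call therefore rests on the direction chosen, which is not stated with the table. Family medians then became 0.0335 (Kv modifiers), -0.137 (Kcnq), -0.0547 (Cacna2d) and -0.0045 (sodium pores) on the left, and 0.0881 (Kv modifiers), -0.0064 (inward rectifiers), 0.0289 (Cacnb), -0.259 (Cacng), 0.0102 (sodium pores), 0.0537 (sodium beta) and 0.0096 (all channel genes) on the right. The Kv modifier median on the left was 0.0333 with the median over probes and -0.0505 with RefSeq mRNA probes alone. With probes as units the right medians were 0.0815 for Kv modifiers, -0.0678 for Cacnb and -0.273 for sodium beta subunits. On array 1 alone the left sodium beta median, over 3 genes, was -0.717, against -0.0166 over both arrays. The causes were not tested.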
